A study of Mus musculus with 188 samples.

Results

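Aminoacyl-tRNA synthetases are the enzymes that join each amino acid to its transfer RNA, and 36 of their genes were examined here among the 25472 genes that every count file lists. The members were chosen by name, through the Ensembl gene identifier of each row. They were 20 enzymes that charge tRNAs in the cytosol (Aars, Cars, Dars, Eprs, Farsa, Farsb, Gars, Hars, Iars, Kars, Lars, Mars1, Nars, Qars, Rars, Sars, Tars, Vars, Wars and Yars) and 16 that serve mitochondria (Aars2, Cars2, Ears2, Fars2, Hars2, Iars2, Lars2, Mars2, Nars2, Pars2, Rars2, Sars2, Tars2, Vars2, Wars2 and Yars2). All 36 were listed in every file and passed the filter on low counts in both fits, which tested 15554 genes in batch 1 and 16473 genes in batches 2 and 3. The lowest single count of a member in an assigned library was 38, for Pars2 in a batch 1 control.

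Each synthetase recognises one amino acid and the tRNAs that carry it, and the charged tRNA is then handed to the ribosome by an elongation factor. Mitochondria translate their own small set of messages, so most amino acids have a second, nuclear-encoded enzyme that is imported into the organelle. Gars and Kars serve both compartments from one gene, Eprs charges glutamate and proline, Farsa and Farsb are the 2 kinds of subunit of one phenylalanine enzyme, and 8 of the cytosolic members sit together in the multisynthetase complex. When uncharged tRNA or another stress leads to phosphorylation of the initiation factor eIF2, the transcription factor ATF4 is translated more, and several cytosolic synthetase genes are known ATF4 targets, together with amino acid transporters and biosynthetic enzymes. One of the kinases that phosphorylate eIF2, Eif2ak1, is known to be controlled by heme.

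The series holds 188 bulk RNA-seq libraries from organotypic brain slice cultures, which are coronal slices of brain kept alive on a membrane at the surface of the medium. The tissue came from wild-type young adult C57BL/6J mice of both sexes, with no transgene in any group, and it was exposed to human proteins or left without toxin as control. Batch 1 (60 libraries, 24 h, 10 per group) comprised control, heme bound to albumin, its low-affinity carrier, at 12.5, 50, 200 or 400 μM (heme-albumin), and heme at 200 μM complexed with the high-affinity scavenger hemopexin (hemeHpx). Batches 2 and 3 (48 and 80 libraries) comprised control, hemoglobin (Hb) at 200 or 400 μM, the same doses of Hb complexed with haptoglobin (HbHp), and haptoglobin alone at 400 μM (Hp), each at 24 and 48 h, in groups of 4 to 12. Of the 188 libraries, 167 entered a group, and 21 whose labels contradict each other or name no treatment entered none. Libraries of a group were numbered in the order of deposit, and nothing in the labels ties them to separate animals, so that p-values measure the spread between these libraries, which may be partly technical. All HbHp libraries belong to batch 3 and to the second of 2 experiments named in the library codes, whereas Hb and control libraries are mostly of batch 2 and of the first experiment, so the HbHp comparisons lean on the batch and experiment terms of the model. All Hp libraries belong to batch 3 as well, in both experiments, so the comparisons of Hp with control lean on the batch term.

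Total counts per library ran from 11038484 to 54174784. Markers of neurons, astrocytes, oligodendrocytes, microglia and endothelial cells were detected in every group, with no marker at 0 throughout a group. In bulk tissue, fewer cells of a type and less RNA per cell cannot be told apart. Values per library are given as CPM, which are counts scaled to a common library size with TMM factors. Tests are quasi-likelihood tests of edgeR whose p-values were adjusted over all genes tested by the method of Benjamini and Hochberg, a gene is said to pass below an adjusted p of 0.05, and differences are log2 fold changes with their standard error (SE). Counts of members are set beside the share of all tested genes that passed in the same comparison, and 15 comparisons were made with a control of the same batches and time.

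The cytosolic synthetases were the more abundant class. Per kilobase of exon, their median level in the batch 1 controls was 22.6 CPM per kb, against 3.10 CPM per kb for the mitochondrial members. Nars, the asparagine enzyme, was the highest cytosolic member on this scale at 40.3 CPM per kb, and Cars, the cysteine enzyme, the lowest at 8.80 CPM per kb. Among the mitochondrial members Iars2, for isoleucine, was highest at 9.64 CPM per kb and Wars2, for tryptophan, lowest at 1.19 CPM per kb. The ranges of Iars2 (7.59 to 11.3 CPM per kb) and of Cars (8.36 to 9.47 CPM per kb) overlapped in these controls, so the classes met at their edges.

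Promoter sequence was available for 13 of the 20 cytosolic and 14 of the 16 mitochondrial members, as RefSeq windows of 300 bases on GRCm38.p6 that reach from 250 bases before to 50 after the start of the gene. No window was given for Cars, Hars, Lars, Nars, Rars, Vars, Wars, Hars2 and Pars2. ATF4 with its partner C/EBP proteins binds a composite element, and the letters TGATGNAA, searched on both strands, were taken as its core. They occur in the windows of 5 of the 13 cytosolic members (Aars, Gars, Iars, Tars and Yars), of 0 of the 14 mitochondrial members and of 10 of 27 amino acid response genes. Of all 27025 genes with a window 4.51% have a match (3.97% of all 32851 windows). The narrower TGATGCAA, which is contained in the first motif, occurs in 4 of 13, 0 of 14 and 7 of 27, beside 1.03% of all genes with a window. The letters TGACGTCA and TGACTCAGC, in 2.03% and 0.503% of all genes with a window, occur in 0 of either class. A match is a run of letters and no measurement of binding, and a window without one speaks only for these bases. The 5 cytosolic promoters with a match are printed because their genes were among those that rose with heme-albumin, followed by Qars, a cytosolic member that did not pass, and Aars2, a mitochondrial member that did (1 of its 2 windows). Each run gives the 250 bases before the start and the first 30 after it, 5′ to 3′ in the sense of the gene, with matches to TGATGNAA on either strand in capitals.
Aars, chr8:111033592-111033871 (+): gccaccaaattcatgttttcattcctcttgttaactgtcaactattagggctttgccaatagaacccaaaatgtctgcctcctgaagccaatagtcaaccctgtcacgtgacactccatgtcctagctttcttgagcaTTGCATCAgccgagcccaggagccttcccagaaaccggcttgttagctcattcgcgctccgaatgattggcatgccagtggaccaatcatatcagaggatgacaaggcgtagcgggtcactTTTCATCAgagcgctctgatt
Gars, chr6:55037751-55038030 (+): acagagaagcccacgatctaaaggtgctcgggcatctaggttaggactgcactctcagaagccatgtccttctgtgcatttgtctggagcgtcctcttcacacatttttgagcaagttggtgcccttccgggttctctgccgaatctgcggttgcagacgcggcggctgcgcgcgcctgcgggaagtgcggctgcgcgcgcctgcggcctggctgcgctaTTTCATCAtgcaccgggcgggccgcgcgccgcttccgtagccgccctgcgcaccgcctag
Iars, chr13:49681880-49682159 (+): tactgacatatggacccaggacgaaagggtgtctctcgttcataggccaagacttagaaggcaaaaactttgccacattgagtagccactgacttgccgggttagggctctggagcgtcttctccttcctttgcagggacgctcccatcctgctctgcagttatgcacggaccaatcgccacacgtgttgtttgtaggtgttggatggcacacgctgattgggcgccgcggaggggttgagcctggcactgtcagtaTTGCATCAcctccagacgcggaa
Tars, chr15:11399629-11399908 (-): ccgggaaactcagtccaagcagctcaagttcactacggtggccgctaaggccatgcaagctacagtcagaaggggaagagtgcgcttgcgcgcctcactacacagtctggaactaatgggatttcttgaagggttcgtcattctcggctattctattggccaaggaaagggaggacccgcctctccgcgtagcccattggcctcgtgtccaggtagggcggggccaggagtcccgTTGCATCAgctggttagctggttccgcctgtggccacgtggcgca
Yars, chr4:129189653-129189932 (+): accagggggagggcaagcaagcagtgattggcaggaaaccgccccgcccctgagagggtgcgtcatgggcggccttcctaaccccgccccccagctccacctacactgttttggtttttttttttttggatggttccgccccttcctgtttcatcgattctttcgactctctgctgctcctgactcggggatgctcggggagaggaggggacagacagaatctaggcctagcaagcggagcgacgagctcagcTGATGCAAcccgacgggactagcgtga
Qars, chr9:108507755-108508034 (+): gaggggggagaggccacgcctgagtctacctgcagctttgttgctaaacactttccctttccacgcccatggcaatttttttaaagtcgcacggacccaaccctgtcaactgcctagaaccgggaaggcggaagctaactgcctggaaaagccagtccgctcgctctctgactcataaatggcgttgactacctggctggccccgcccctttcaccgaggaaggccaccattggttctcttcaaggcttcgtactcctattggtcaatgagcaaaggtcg
Aars2, chr17:45506582-45506861 (+): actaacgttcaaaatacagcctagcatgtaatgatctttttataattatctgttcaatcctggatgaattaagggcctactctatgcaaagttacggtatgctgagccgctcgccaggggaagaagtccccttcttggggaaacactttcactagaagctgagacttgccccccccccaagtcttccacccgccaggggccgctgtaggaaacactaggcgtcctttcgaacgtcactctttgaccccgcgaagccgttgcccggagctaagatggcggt

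Aars has 2 matches, which begin 112 bases before the start and at base 10 after it. The match of Gars begins 30 bases before the start and that of Tars 15 bases before it, while those of Iars and Yars begin at bases 8 and 4 after it. All are read on the opposite strand except that of Yars.

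Most cytosolic synthetases and a smaller share of the mitochondrial ones were higher with heme-albumin at 200 and 400 μM than in control. At 200 μM, 17 of 20 cytosolic members rose and none fell, beside 6.98% of all genes that rose and 6.60% that fell. Of the 16 mitochondrial members, 3 rose (Aars2, Lars2 and Tars2) and none fell. The class medians of the log2 fold change were 0.29 and 0.15, where the median over all genes was -0.013. At 400 μM, 18 cytosolic and 7 mitochondrial members rose and none fell, beside 14.7% of all genes that rose and 14.3% that fell, with medians of 0.43 and 0.11. Of the 16 mitochondrial members 9 at 200 μM and 8 at 400 μM had an unadjusted p under 0.05, beside 4254 and 6117 of the 15554 genes tested. Both comparisons use the same 10 controls, so they are not independent of each other.

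Mars1, which charges methionine, was at 70.9 to 85.6 CPM (median 78.5) in the controls, 91 to 123 CPM (median 109) at 200 μM and 96.2 to 139 CPM (median 117) at 400 μM. All 10 libraries of either dose lay above all 10 controls, and the difference at 200 μM passed (log2 fold change 0.44 ± 0.059 (SE), adjusted p = 1.30e-07). Mars1 overlaps Ddit3 on the other strand, and the strand setting of the counting is not given in the sources used here. Unless the counting was stranded, reads of the 2 genes cannot be told apart where they overlap. Ddit3, the stress transcription factor CHOP, was at 19 to 34.1 CPM (median 22.7) in the controls and 25.7 to 61.4 CPM (median 43.1) at 200 μM. Its name maps to 2 gene identifiers, and these values are of the lower one only. Nars was at 158 to 190 CPM (median 175) in the controls, 203 to 275 CPM (median 233) at 200 μM and 202 to 333 CPM (median 269) at 400 μM. Again no library of either dose fell within the control range, and the change was 0.42 ± 0.053 (adjusted p = 5.97e-08) at 200 μM and 0.64 ± 0.054 (adjusted p = 1.95e-14) at 400 μM, the latter being the largest among the 36 members.

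Lars, for leucine, was at 81.6 to 111 CPM (median 99.3) in the controls and rose to 116 to 147 CPM (median 126) at 200 μM (log2 fold change 0.38 ± 0.051 (SE), adjusted p = 1.98e-07), with no overlap between the groups. Aars, for alanine, was at 246 to 293 CPM (median 269) in the controls and 284 to 405 CPM (median 346) at 200 μM, where the ranges overlapped (0.37 ± 0.052, adjusted p = 4.60e-07). At 400 μM Aars was at 307 to 480 CPM (median 400) and all 10 libraries stood above the controls. Tars, the threonine enzyme, was at 63 to 90.7 CPM (median 84.2) in the controls and 90.8 to 117 CPM (median 109) at 200 μM, without overlap (0.37 ± 0.067, adjusted p = 7.33e-05). In all, 6 cytosolic members (Cars, Lars, Mars1, Nars, Tars and Yars) at 200 μM and 10 (Aars, Eprs, Gars, Lars, Mars1, Nars, Sars, Tars, Wars and Yars) at 400 μM had every treated library above every control. No mitochondrial member did so at either dose. The share of all genes set apart in this way was not counted, so these counts have no background beside them. Of these 36 genes, 11 cytosolic and 8 mitochondrial members overlap another annotated gene.

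Of the other members that rose at 200 μM, the changes ran from 0.15 for Hars to 0.37 for Cars. Cars is the cysteine enzyme and rose by 0.37 ± 0.056 (adjusted p = 2.81e-06). Yars, for tyrosine, rose by 0.37 ± 0.048 (adjusted p = 1.17e-07), and Gars, for glycine in both compartments, by 0.31 ± 0.051 (adjusted p = 1.74e-05). The proline and glutamate enzyme Eprs rose by 0.27 ± 0.056 (adjusted p = 0.000430). The 3 cytosolic members that did not pass at 200 μM were Kars (0.18, adjusted p = 0.0559), Qars (-0.00070, adjusted p = 0.996) and Dars (-0.010, adjusted p = 0.933), for lysine, glutamine and aspartate. All 3 belong to the multisynthetase complex, of whose 8 enzymes 5 rose (Mars1, Lars, Eprs, Rars and Iars), with a median of 0.22. In that comparison 6.98% of all genes rose. At 400 μM Kars rose as well (0.20 ± 0.066, adjusted p = 0.0170), while Qars was at -0.063 (adjusted p = 0.318) and Dars at 0.017 (adjusted p = 0.849).

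Among the mitochondrial members Aars2 was at 9.51 to 21.4 CPM (median 14.9) in the controls and 15.7 to 24.4 CPM (median 19.2) at 200 μM (log2 fold change 0.35 ± 0.12 (SE), adjusted p = 0.0345). Tars2 was at 25.1 to 35.9 CPM (median 32.3) in the controls and 32.4 to 41 CPM (median 38.1) at 200 μM (0.24 ± 0.059, adjusted p = 0.00308), and Lars2 was at 22 to 28 CPM (median 24.7) and 23.8 to 30.2 CPM (median 27.1) (0.15 ± 0.047, adjusted p = 0.0314). In each of the 3 genes the 2 ranges overlapped. At 400 μM Ears2, Pars2, Sars2 and Yars2 also rose, of which Ears2, the mitochondrial glutamate enzyme, changed most (0.38 ± 0.11, adjusted p = 0.00527). It was at 5.05 to 9.60 CPM (median 6.51) in the controls and 7.56 to 10.2 CPM (median 8.68) at 400 μM, with overlap. Pars2 was the lowest of these transcripts, at 3.42 to 6.06 CPM (median 4.83) in the controls, and its adjusted p at 400 μM was 0.0482. The mitochondrial counts were the less stable ones: in a fit of the control, heme-albumin 200 μM and hemeHpx libraries alone 1 member passed at 200 μM, Tars2 (0.24, adjusted p = 0.0174), and with a correction for transcript length and GC content that was chosen after the data were seen 4 passed at 400 μM (Ears2, Lars2, Tars2 and Yars2).

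**Figure D1:**
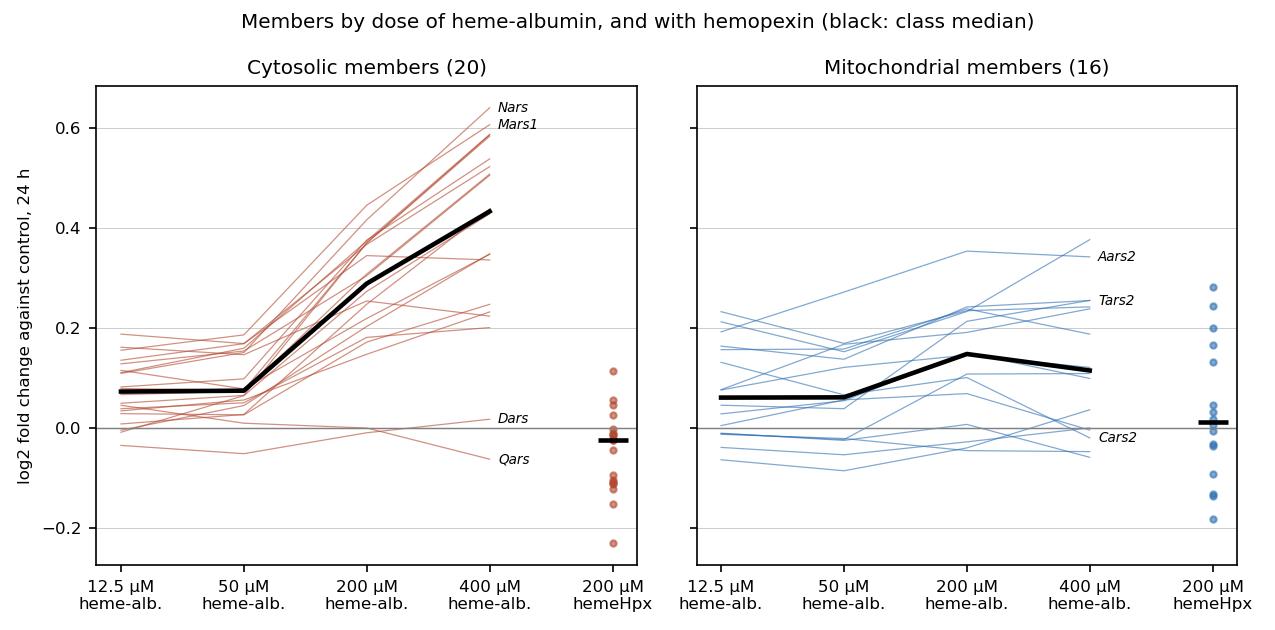
log2 fold change against the batch 1 controls (vertical axis) of each cytosolic (left) and mitochondrial (right) member, by dose of heme-albumin and with hemeHpx at 200 μM (horizontal axis, 10 libraries per group), with the class median in black. The cytosolic median goes from 0.072 at 12.5 μM to 0.43 at 400 μM, the mitochondrial one from 0.060 to 0.11, and both lie near 0 with hemeHpx.

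Set side by side for the same amino acid, the cytosolic enzyme had the larger log2 fold change in 17 of 17 pairs at 200 μM and in 17 of 17 at 400 μM. Eprs is paired with both Ears2 and Pars2, and Fars2 with both Farsa and Farsb, so some pairs share a gene. Both partners rose at 200 μM for alanine, leucine and threonine: Aars 0.37 and Aars2 0.35, Lars 0.38 and Lars2 0.15, and Tars 0.37 and Tars2 0.24. Where the cytosolic partner rose, the mitochondrial one had a value below 0 for histidine (Hars 0.15, Hars2 -0.046), asparagine (Nars 0.42, Nars2 -0.041) and tryptophan (Wars 0.22, Wars2 -0.028), with adjusted p-values of 0.635, 0.708 and 0.870 for these mitochondrial members. Hars and Hars2 overlap on opposite strands, which limits how far their reads can be separated unless the counting was stranded. At 400 μM both partners rose in 7 of 17 pairs, namely those of Aars2, Lars2, Sars2, Tars2 and Yars2 with their namesakes and those of Eprs with Ears2 and with Pars2. In 5 of 17 the cytosolic partner rose and the mitochondrial one, which did not pass, had a value below 0: Cars 0.58 and Cars2 -0.020, Hars 0.23 and Hars2 -0.048, Iars 0.35 and Iars2 -0.059, Mars1 0.61 and Mars2 -0.0049, and Wars 0.35 and Wars2 -0.00050. No test of the difference between partners was made.

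The lower doses gave no call in this fit. At 12.5 μM 0 of 36 members passed, beside 0.0450% of all genes, with class medians of 0.072 and 0.060. At 50 μM 0 of 36 passed, beside 0.463% of all genes, with medians of 0.074 and 0.061. DESeq2 called 0 members at either dose. With edgeR 9 members at 12.5 μM and 9 at 50 μM had an unadjusted p under 0.05, beside 1226 and 1820 of the 15554 genes tested. The mean log2 CPM over the cytosolic members was 6.75 ± 0.056 (SD over 10 libraries) at 12.5 μM and 6.76 ± 0.052 at 50 μM, beside 6.67 ± 0.068 in control, and the ranges overlapped. Between doses, 8 cytosolic members (Aars, Cars, Gars, Lars, Mars1, Nars, Tars and Yars) were higher at 200 than at 50 μM, beside 0.431% of all genes that were higher and 0.366% lower, and 4 (Aars, Cars, Gars and Nars) were higher at 400 than at 200 μM, beside 0.707% higher and 0.559% lower. The corresponding changes of Nars were 0.27 ± 0.053 (adjusted p = 0.00429) and 0.22 ± 0.053 (adjusted p = 0.0162). No mitochondrial member passed in either comparison of doses, and DESeq2 also called 0. There 0 had an unadjusted p under 0.05, beside 1892 and 1793 of the 15554 genes tested.

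The mean levels of the 2 classes lay further apart at 400 μM than in control. The mean log2 CPM over the cytosolic members was 6.67 ± 0.068 (SD over 10 libraries) in control, 6.94 ± 0.072 at 200 μM and 7.06 ± 0.12 at 400 μM. Over the mitochondrial members it was 4.07 ± 0.14, 4.22 ± 0.076 and 4.21 ± 0.088. The difference between the 2 classes within a library was 2.60 ± 0.12 in control and 2.85 ± 0.13 at 400 μM, and the ranges of the 2 groups overlapped. As a mean over members this is a description of the libraries and was given no test.

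**Figure D2:**
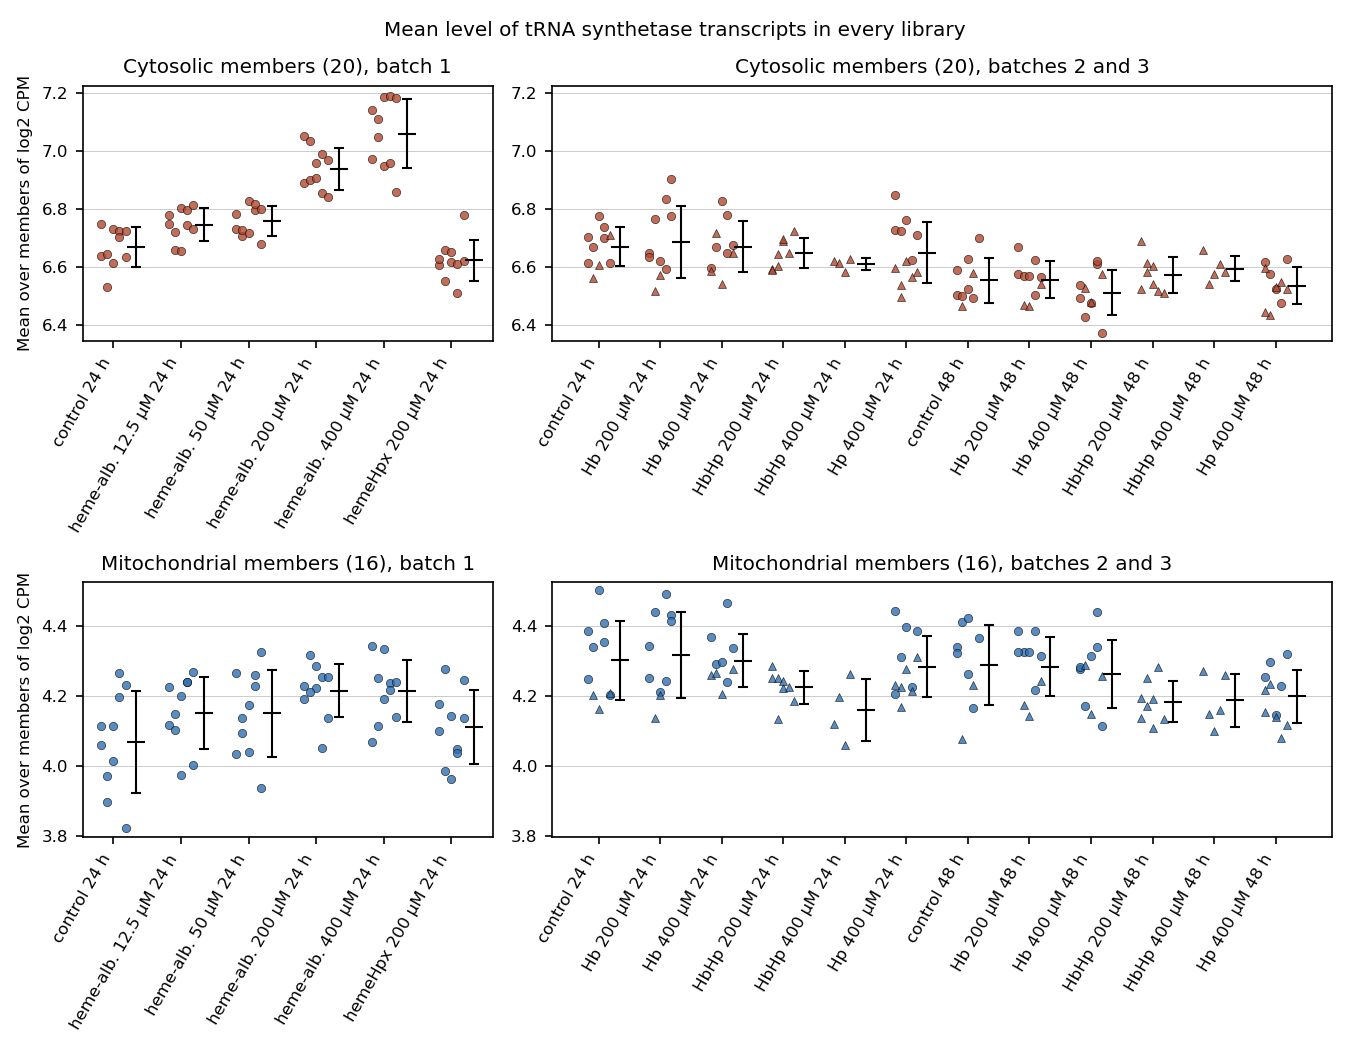
Mean over members of log2 CPM (vertical axis) in every library, by group (horizontal axis), for the cytosolic and the mitochondrial members, with batch 1 and batches 2 and 3 in separate panels that were scaled separately. In batch 1 the cytosolic level averages 6.67 in control, 7.06 at 400 μM heme-albumin and 6.62 with hemeHpx.

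With heme carried by hemopexin few synthetases passed. With hemeHpx at 200 μM, 1 of 20 cytosolic members fell, none rose and 0 of 16 mitochondrial members passed, beside 3.77% of all genes that rose and 4.44% that fell. The class medians were -0.025 and 0.012. The one that fell was Eprs, at 205 to 294 CPM (median 244) in control and 203 to 235 CPM (median 212) with hemeHpx (log2 fold change -0.23 ± 0.056 (SE), adjusted p = 0.0222), and the 2 ranges overlapped. This call was lost in the fit corrected for length and GC content (-0.13, adjusted p = 0.112), which called only 109 of 15554 genes in either direction for hemeHpx against control. DESeq2 called 2 cytosolic and 0 mitochondrial members here, and 6 mitochondrial members had an unadjusted p under 0.05, beside 4875 of the 15554 genes tested. Eprs was also the member that passed most often, in 5 of the 15 comparisons with control, which partly share their control libraries.

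Against heme-albumin at the same dose, 19 of 20 cytosolic members were lower with hemeHpx, all but Qars, beside 12.9% of all genes that were lower. Of the mitochondrial members 2 were lower, Rars2 (-0.20, adjusted p = 0.0346) and Yars2 (-0.35, adjusted p = 0.00563). The class medians were -0.36 and -0.11, with 0.013 over all genes. Eprs was at 278 to 337 CPM (median 302) with heme-albumin and 203 to 235 CPM (median 212) with hemeHpx (log2 fold change -0.50 ± 0.056 (SE), adjusted p = 1.51e-09), and the groups did not overlap. Tars was at 90.8 to 117 CPM (median 109) and 68.9 to 86.3 CPM (median 74.3) (-0.49 ± 0.067, adjusted p = 3.76e-07), again apart. In all, 5 cytosolic members (Eprs, Gars, Lars, Nars and Tars) had every hemeHpx library below every heme-albumin library. How many of all genes did so was not counted here either. The single exception in the class, Qars, was at 66.4 to 84.5 CPM (median 76.1) and 67.9 to 84.2 CPM (median 74.2) (log2 fold change -0.014, adjusted p = 0.837). This comparison shares its heme-albumin libraries with the one against control.

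Genes that act beside the synthetases were read from lists that were set up with earlier results of these data known. The 32 amino acid response genes hold no synthetase and include Atf4 itself, amino acid transporters, biosynthetic enzymes and other stress genes. Whether ATF4 or another factor acted on any of them was not tested. At 200 μM heme-albumin 21 of them rose and 0 fell, with a median of 0.46, and at 400 μM 24 rose and 0 fell, with a median of 0.73. Beside these counts, 6.98% of all genes rose at 200 μM and 14.7% at 400 μM. The cystine transporter Slc7a11 was at 102 to 221 CPM (median 188) in control and 447 to 683 CPM (median 506) at 200 μM (log2 fold change 1.54 ± 0.15 (SE), adjusted p = 1.04e-11). Trib3, a pseudokinase, was at 6.46 to 20.9 CPM (median 12.9) and 13.4 to 53.5 CPM (median 33.2) (1.39 ± 0.20, adjusted p = 1.08e-06), and Chac1, a glutathione-degrading enzyme, at 3.87 to 7.87 CPM (median 6.01) and 6.26 to 25.7 CPM (median 14.6) (1.37 ± 0.21, adjusted p = 4.35e-06). The groups did not overlap for Slc7a11 and overlapped for Trib3 and Chac1. The changes of these 3 genes were larger than that of any member. With hemeHpx 0 of the 32 rose against control and 2 fell, the serine pathway enzyme Psat1 (-0.23) and the transporter Slc7a5 (-0.23), beside 3.77% and 4.44% of all genes. Against heme-albumin at the same dose 23 were lower with hemeHpx and 1 was higher, with a median of -0.56, beside 12.9% of all genes that were lower.

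Of the scaffold proteins of the multisynthetase complex, 2 of 3 rose at 200 μM, Eef1e1 (0.29 ± 0.090, adjusted p = 0.0237) and Aimp1 (0.17 ± 0.056, adjusted p = 0.0300), while Aimp2 was at 0.11. Of 6 cytosolic elongation factors 1 rose, Eef1a2 (0.55 ± 0.14, adjusted p = 0.00383), which brings charged tRNA to the ribosome in neurons and muscle. These counts stand beside 6.98% of all genes that rose at 200 μM. All 3 scaffolds were lower with hemeHpx than with heme-albumin, with a median of -0.24, beside 12.9% of all genes that were lower. Eef1a2 also rose with hemeHpx (0.48 ± 0.14, adjusted p = 0.0371). None of 10 mitochondrial translation factors, 7 other charging enzymes or 4 eIF2 kinases passed at 200 μM. At 400 μM 1 of each of these lists passed, which is no larger a share than 14.7% of all genes that rose and 14.3% that fell add up to: the translation factor Guf1 fell (-0.28), the selenocysteine enzyme Sepsecs rose (0.12) and Eif2ak1 fell (-0.12, adjusted p = 0.00809). With hemeHpx Eif2ak1 fell as well (-0.11, adjusted p = 0.0484), as did Gfm1, Mtrf1l and Gatc, beside 4.44% of all genes that fell.

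Markers of cell types moved in the same libraries. At 200 μM heme-albumin 4 of 5 microglial markers fell, with a median over the list of -0.83, and their summed level was 53 to 180 CPM in control and 33.3 to 81.3 CPM with heme-albumin. Of border macrophage markers 2 of 4 fell, of astrocyte markers 2 of 5, of endothelial markers 1 of 5, of oligodendrocyte markers 0 of 5 and of neuronal markers 0 of 6. In the same comparison 6.60% of all genes fell. The summed level of the neuronal markers was 182 to 457 CPM in control and 167 to 465 CPM with heme-albumin, and that of the astrocyte markers 6112 to 10580 CPM and 5515 to 9828 CPM. Against heme-albumin at the same dose, 4 of 5 microglial, 3 of 4 border macrophage, 2 of 5 astrocyte and 2 of 5 endothelial markers were higher with hemeHpx. For background, an edgeR fit with another scaling of the libraries (RLE) had 2003 of 15554 genes higher in that comparison. No marker in these lists was at 0 throughout a group. The part of these shifts in the levels of the synthetases was not tested.

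**Figure D3:**
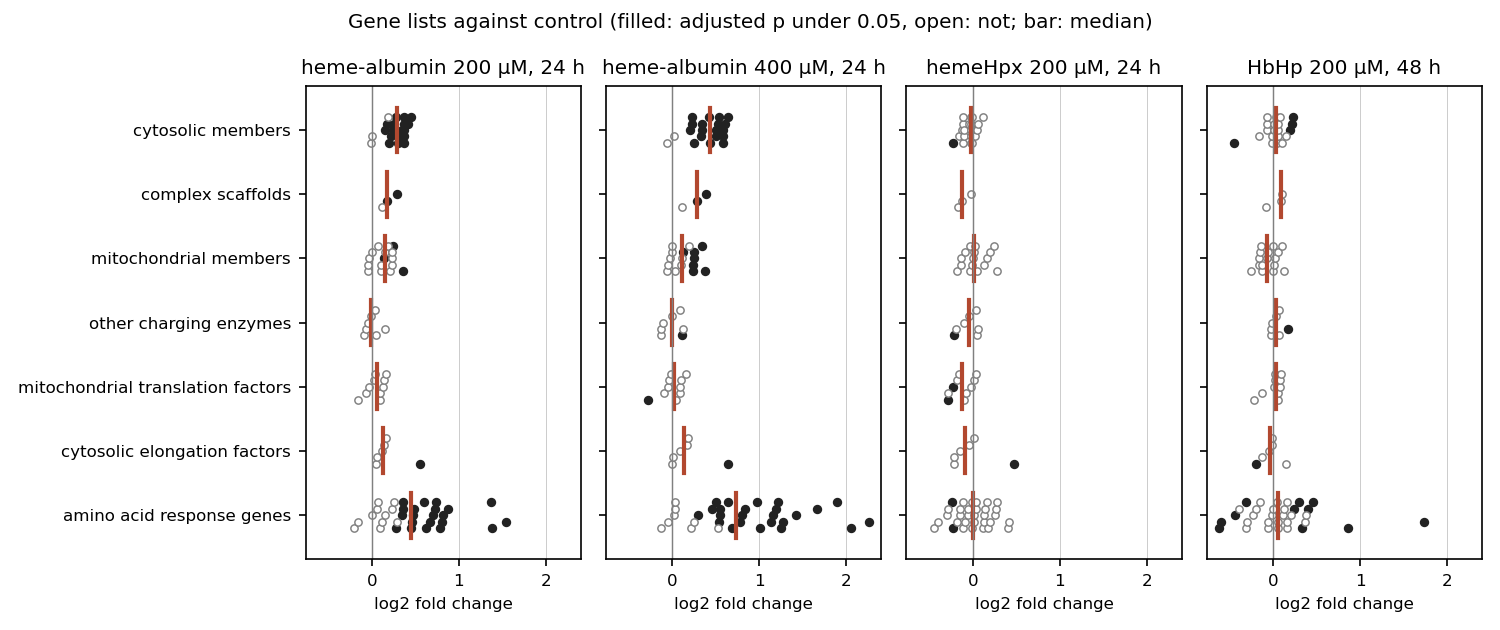
log2 fold change against control (horizontal axis) of the genes of each list (rows) at heme-albumin 200 and 400 μM, hemeHpx 200 μM and HbHp 200 μM at 48 h, with filled points for genes past an adjusted p of 0.05, open points for the others and a bar at the list median. The amino acid response genes have medians of 0.46 and 0.73 with heme-albumin and reach higher than either class of synthetases.

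The 5 cytosolic members with TGATGNAA in the promoter window had log2 fold changes with a median of 0.52 at 400 μM heme-albumin, from 0.35 for Iars to 0.59. The 8 cytosolic members with a window but without a match had a median of 0.23, from -0.063 for Qars to 0.61 for Mars1. The 7 members with no window had a median of 0.44. The ranges overlapped, and no test was made. All 14 mitochondrial members with a window lacked the motif, and they include 6 of the 7 that rose at 400 μM.

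Free Hb gave no call among the synthetases. At 200 μM 0 of 36 members passed at 24 h, beside 0.0971% of all genes, and 0 at 48 h, beside 0.310%. At 400 μM 0 passed at 24 h, beside 0.522%, and 0 at 48 h, beside 0.601%. DESeq2 also called 0 members in these 4 comparisons. An unadjusted p under 0.05 was found for 0, 1, 1 and 3 members, beside 516, 784, 1141 and 1164 of the 16473 genes tested. The cytosolic medians ran from -0.035 to 0.012. Nars, as an example, was at 144 to 191 CPM (median 166) in the 9 controls at 48 h, 160 to 190 CPM (median 167) in 10 libraries with Hb at 200 μM and 154 to 177 CPM (median 162) in 10 with Hb at 400 μM, with overlap throughout. Doses and times of Hb and heme-albumin differ in part and the libraries belong to different batches, so no test between them was made.

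Few synthetases passed with HbHp. At 200 μM and 24 h 0 of 36 passed, beside 1.93% of all genes, and at 400 μM and 24 h 0 of 36, beside 5.15%, with 0 called by DESeq2. An unadjusted p under 0.05 was found for 1 and 7 members, beside 2170 and 2975 of the 16473 genes tested. At 200 μM and 48 h 3 cytosolic members rose (Eprs, Farsb and Nars), 1 fell (Vars) and 0 of 16 mitochondrial members passed, beside 7.04% of all genes that rose and 4.85% that fell. DESeq2 called 1 mitochondrial member there, Vars2, and 2 had an unadjusted p under 0.05 with edgeR, beside 4265 of the 16473 genes tested. In the same libraries 2 of 4 markers of proliferating cells fell (Cdk1 and Mki67), with a summed level of 255 to 430 CPM against 365 to 716 CPM in control, and 1 of 5 astrocyte markers fell and 1 of 4 border macrophage markers rose, while 0 of 6 neuronal, 5 oligodendrocyte, 5 microglial and 5 endothelial markers passed. The part of these markers in the calls was not tested. At 400 μM and 48 h Eprs and Nars rose, beside 7.39% of all genes that rose and 4.56% that fell.

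At 48 h Eprs was at 189 to 243 CPM (median 216) in the 9 controls and at 224 to 261 CPM (median 247) in the 8 libraries with HbHp at 200 μM (log2 fold change 0.23 ± 0.066 (SE), adjusted p = 0.0141). The 5 libraries with HbHp at 400 μM were at 269, 230, 260, 257 and 257 CPM (0.27 ± 0.072, adjusted p = 0.00716). All but 1 control lay below every HbHp library, and the 2 controls of the second experiment were at 189 and 216 CPM. Nars was at 144 to 191 CPM (median 166) in the controls and 175 to 243 CPM (median 184) at 200 μM (0.19 ± 0.052, adjusted p = 0.00719). At 400 μM the 5 libraries were at 203, 187, 194, 205 and 188 CPM (0.22 ± 0.057, adjusted p = 0.00402), and the 2 controls of the second experiment were at 174 and 176 CPM. In both genes the ranges of treated and control libraries overlapped.

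Vars, for valine, was at 64.4 to 128 CPM (median 101) in the controls and 26.1 to 73.9 CPM (median 61.7) with HbHp at 200 μM (log2 fold change -0.45 ± 0.13 (SE), adjusted p = 0.0133). The 2 controls of the second experiment, to which all HbHp libraries belong, were at 64.4 and 65.6 CPM, within the range of the treated libraries, and the 7 controls of the first experiment were at 101, 116, 128, 72.9, 111, 110 and 88.9 CPM. Farsb, the beta subunit of the phenylalanine enzyme, was at 52.4 to 58.9 CPM (median 55.4) in the controls and 55.8 to 91.5 CPM (median 61.5) with HbHp (0.22 ± 0.070, adjusted p = 0.0289). One library, HbHp 200 μM 48 h replicate 1, held the highest Farsb and the lowest Vars of its group, at 91.5 and 26.1 CPM. Without it, a setting chosen after the data were seen, Eprs alone passed, at 0.21 (adjusted p = 0.0422). Farsb was then at 0.12 (adjusted p = 0.249), Vars at -0.34 (adjusted p = 0.0580) and Nars at 0.13 (adjusted p = 0.0763).

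Within batch 3 alone 0 cytosolic members passed with HbHp at 200 or 400 μM and 48 h, and the same count was found within the second experiment alone, where each fit holds 2 controls at 48 h. Within batch 3 Eprs was at 0.27 (adjusted p = 0.144), Nars at 0.19 (adjusted p = 0.139) and Vars at -0.13 (adjusted p = 0.768) at 200 μM. With the length and GC correction, Vars, whose longest transcript has a GC content of 60.9%, the highest of the cytosolic members, was at -0.25 (adjusted p = 0.169) and Eprs at 0.17 (adjusted p = 0.0702), and 1 cytosolic member passed, Aars. The term for the second experiment against the first took up 11 cytosolic members (1 higher, 10 lower) and 9 mitochondrial ones (all lower), beside 36.1% of all genes higher and 31.9% lower, with Vars at -0.51. The term for batch 3 against batch 2 took up 14 cytosolic members, all higher, and 6 mitochondrial ones, 5 of them higher, beside 8.68% higher and 8.52% lower.

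The scavenger complex was compared with its parts at the same dose and time. Against Hb at 200 μM and 48 h, HbHp had Nars higher (0.17 ± 0.051, adjusted p = 0.0283) and Vars lower (-0.39 ± 0.13, adjusted p = 0.0479), beside 3.14% of all genes higher and 1.84% lower, and 0 cytosolic members passed without HbHp 200 μM 48 h replicate 1 or within batch 3 alone. Against Hb at 400 μM and 48 h, Nars (0.25 ± 0.056, adjusted p = 0.00265) and Eprs (0.26 ± 0.071, adjusted p = 0.0203) were higher, beside 2.84% higher and 1.44% lower, and 1 passed when any of replicates 1, 3 or 4 of HbHp was left out and 0 within batch 3 alone. At 24 h 0 members passed against Hb at either dose, beside 0.607% and 2.21% of all genes, with 0 called by DESeq2. An unadjusted p under 0.05 was found for 3 and 10 members, beside 2022 and 2652 of the 16473 genes tested. Against Hp alone at 400 μM 0 members passed at 24 or 48 h, beside 0.619% and 1.44%, with 2 and 8 at an unadjusted p under 0.05, beside 1480 and 2616 of the 16473 genes tested. Eprs at 48 h was at 0.22 ± 0.063 (adjusted p = 0.0531) in the last of these. Whether the effect of a toxin differed between 48 and 24 h was tested as an interaction term, and 0 of 36 members passed for Hb at 200 or 400 μM, HbHp at 200 or 400 μM or Hp, beside 0%, 0%, 0.0121%, 0.0304% and 0% of all genes. At an unadjusted p under 0.05 there were 0, 0, 2, 5 and 3 members, beside 118, 350, 1685, 1030 and 1928 of the 16473 genes tested, and DESeq2 called 0 members in each.

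Hp alone gave 0 calls at 24 h with edgeR and with DESeq2, beside 0.704% of all genes. There 3 members had an unadjusted p under 0.05, beside 1973 of the 16473 genes tested. At 48 h 4 cytosolic members fell, beside 5.88% of all genes that fell and 4.88% that rose. These were Vars (-0.40 ± 0.12, adjusted p = 0.0153), Farsa (-0.20 ± 0.059, adjusted p = 0.0208), Kars (-0.19 ± 0.053, adjusted p = 0.0118) and Wars (-0.12 ± 0.037, adjusted p = 0.0232). No mitochondrial member passed, and 1, Vars2, was called by DESeq2. An unadjusted p under 0.05 was found for 7 mitochondrial members, beside 4364 of the 16473 genes tested. Vars was at 60.9 to 88.9 CPM (median 69.2) in the 11 Hp libraries, which overlaps the control range. Within batch 3 alone and within the second experiment alone 0 of them passed, and Vars was at -0.082 (adjusted p = 0.999) in the former. Of the amino acid response genes, 7 rose and 4 fell with HbHp at 200 μM and 48 h, with a median of 0.056. In that HbHp comparison 7.04% of all genes rose and 4.85% fell. Slc7a11 (1.73 ± 0.29, adjusted p = 1.52e-05) and Trib3 (0.87 ± 0.17, adjusted p = 0.000242) rose, and the arginine transporter Slc7a3 fell (-0.62 ± 0.21, adjusted p = 0.0442).

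**Figure D4:**
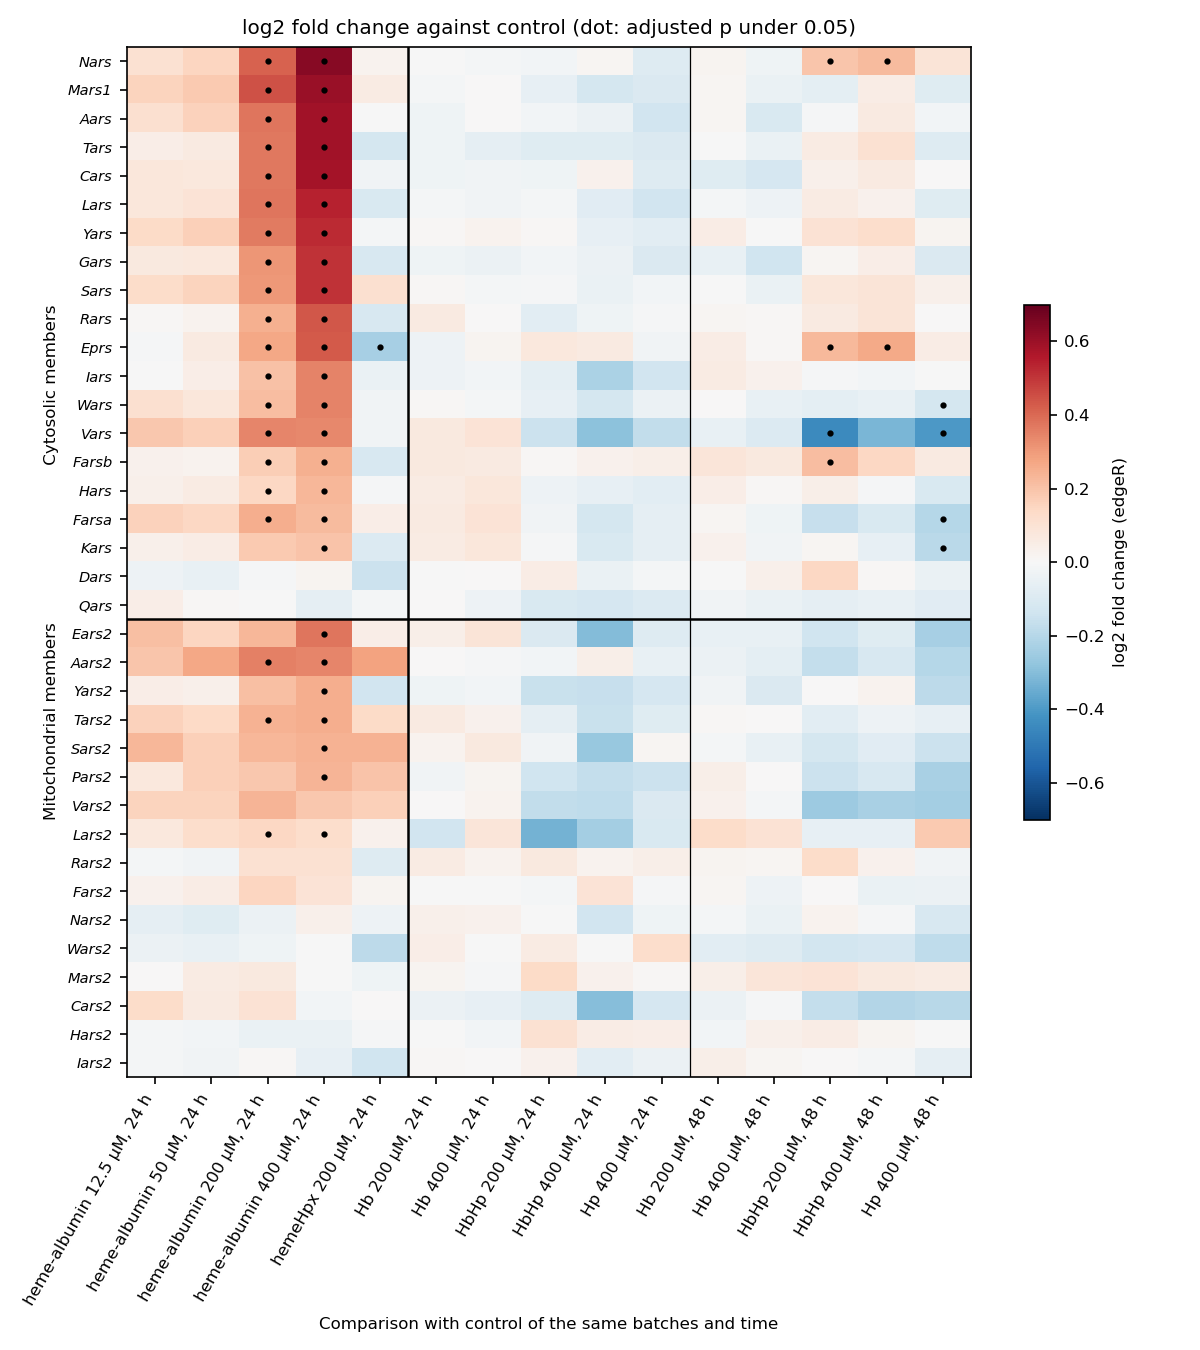
log2 fold change against control (colour, edgeR) of the 36 members (rows, mitochondrial and cytosolic apart) in the 15 comparisons with a control of the same batches and time (columns), with a dot where the adjusted p was under 0.05. Dots gather in the cytosolic rows at 200 and 400 μM heme-albumin, where 17 and 18 of 20 rose, and are few elsewhere.

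Without toxin, cytosolic synthetases were lower in the controls at 48 h than in those at 24 h. Most library codes of the 24 h controls do not recur at 48 h, so time and code cannot be fully told apart. Between the controls of batches 2 and 3 at 24 and 48 h, 10 of 20 cytosolic members fell and 0 rose, while 0 of 16 mitochondrial members passed, beside 2.85% of all genes that fell and 1.66% that rose. The class medians were -0.13 and -0.016, and the cytosolic partner had the lower value in 17 of 17 pairs. DESeq2 called 0 mitochondrial members, and 1 had an unadjusted p under 0.05, beside 3226 of the 16473 genes tested. Iars was at 184 to 237 CPM (median 206) in the 10 controls at 24 h and 129 to 200 CPM (median 160) in the 9 at 48 h (log2 fold change -0.34 ± 0.065 (SE), adjusted p = 0.000552), with overlap. Eprs was at 217 to 269 CPM (median 255) and 189 to 243 CPM (median 216) (-0.24 ± 0.053, adjusted p = 0.00389). The other 8 were Lars, Yars, Nars, Aars, Tars, Mars1, Cars and Gars. Of the amino acid response genes 12 fell and 0 rose. Within batch 3 alone or the second experiment alone, with 2 controls at 48 h in each, 0 members passed. Without control 48 h replicate 8 the count of cytosolic members was 5, without batch and experiment terms it was 4, and with the library code as a block it was 2. Markers of cell types moved between the same controls: 3 of 5 oligodendrocyte markers fell, with a summed level of 21320 to 32120 CPM at 24 h and 14170 to 27280 CPM at 48 h, and 2 of 5 microglial markers rose, with a summed level of 38.8 to 225 CPM at 24 h and 56.7 to 498 CPM at 48 h. The astrocyte sum was 4776 to 6109 CPM and 4690 to 9495 CPM with 0 of 5 past the threshold, 1 of 4 border macrophage and 1 of 5 endothelial markers fell, and 0 of 6 neuronal and 4 proliferation markers passed. Their part in the counts was not tested.

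One mitochondrial member stood apart between the 2 sets of libraries. Lars2, the mitochondrial leucine enzyme, was at 22 to 30.4 CPM in the 60 libraries of batch 1 (median 26.4), 138 to 722 CPM in the 48 of batch 2 (median 221) and 126 to 309 CPM in the 80 of batch 3 (median 210), so the sets did not overlap. The ratio of the medians of the 24 h controls, batches 2 and 3 over batch 1, was 10.1 for Lars2 and 0.818 to 1.31 for the other 35 members. The sets were scaled separately and no test was made across them, and what sets Lars2 apart was not tested. All comparisons with control above were made within a set. In batches 2 and 3 Lars2 was the highest mitochondrial member per kilobase, at 22.5 CPM per kb in the 24 h controls, and its SE against control was wide there, for example a log2 fold change of -0.059 ± 0.20 with HbHp at 200 μM and 48 h.

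**Figure D5:**
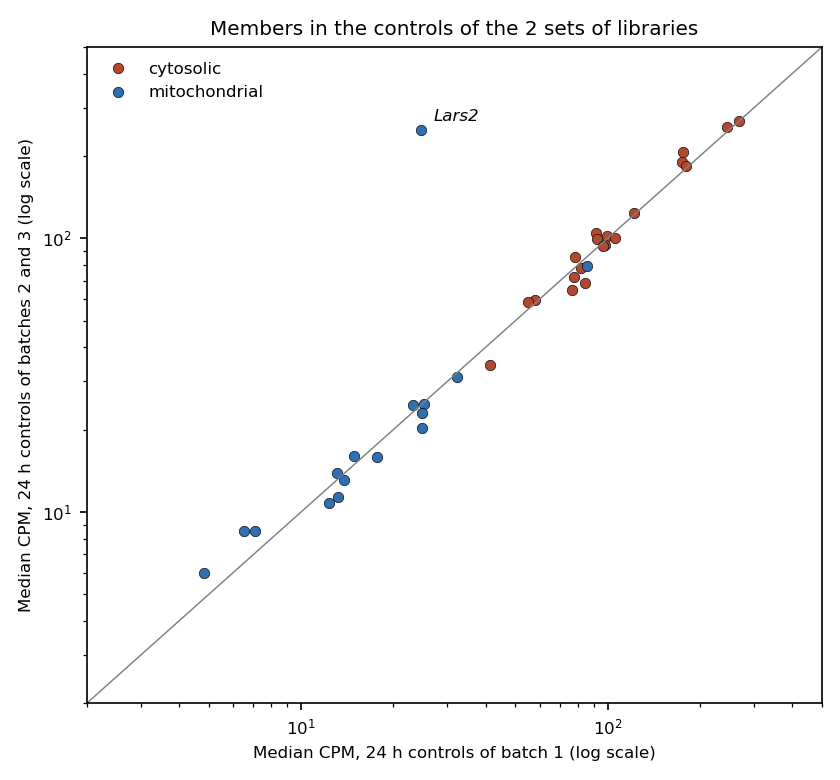
Median CPM of each member in the 24 h controls of batch 1 (horizontal axis) and of batches 2 and 3 (vertical axis), both on log scales, with 10 controls in each set and a line of equal level. Lars2 lies 10.1 times above the line, and the other 35 members lie within 0.818 to 1.31 times.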

How the data were processed

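RNA from slice cultures was sequenced as poly(A)-selected Illumina TruSeq mRNA libraries. The authors deposited raw gene counts per library, which per the labels and the submitters' processing notes came from featureCounts on GRCm39. The aligner, the versions and the strand setting are not given in the sources used here. Of 25711 Ensembl identifiers, 25602 were named through GENCODE M21, which also gave exon lengths, GC content and overlaps, and no gene coordinates of that build are given other than the RefSeq promoter windows.

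Separate edgeR fits (version 4.0.16, R 4.3.3) were made on the deposited counts, one for the 60 libraries of batch 1 and one for the 107 assigned libraries of batches 2 and 3 with batch and experiment terms, with TMM scaling, filterByExpr (minimum count 10) and quasi-likelihood tests over all genes. The scripts were tested on simulated counts. log2 CPM used a prior count of 2. For hemeHpx the treatment tag, library name and methods were followed where titles name haptoglobin. Named genes were, in chosen comparisons, the 5 cytosolic and 3 mitochondrial members that changed most, members against their class, same-amino-acid pairs that both passed or differed in sign, the member passing most often, the length-scaled extremes and the top 3 of each other list. The named comparisons for the ranking were heme-albumin, hemeHpx, Hb and HbHp at 200 μM against control. Other genes, such as those whose groups do not overlap, were named after their values were seen. One gene of a list is not reported here. The members and lists were chosen with earlier results of these data known. Alternatives were DESeq2 (version 1.42.0), other scaling, filters, terms and subsets, a block by library code and leave-one-out. A GC and length correction, class levels without Lars2 and a fit without 1 HbHp library were added after seeing the data.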

Additional observations from a re-analysis of the deposited data

Results flagged for a closer look

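One value stood far from its group. Lars2 was at 722 CPM in Hb 400 μM 24 h replicate 6, where the nearest of the other libraries of that group was at 289 CPM, and the gap made up 0.760 of the range against a limit of 0.466 for 10 libraries. In all 64 combinations of group and measure (class levels and Lars2) were examined in this way, and chance flags about 1 in 20. No cause of this value was tested.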

How the results depend on the processing

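The counts with heme-albumin at 200 and 400 μM were 17 to 18 cytosolic members in all alternatives run, and 1 to 5 and 4 to 7 mitochondrial ones. All 30 recomputed differences in class level from control, with a prior count of 0.5 or without Lars2, moved by less than the spread of the replicates. Their sign was not checked: with Hb at 200 μM and 24 h the class difference averaged 2.372 beside 2.370 in control, and 2.603 beside 2.612 without Lars2. No result changed sign past the threshold, and of the single members named 726 values kept their call and 116 lost it. Of the class medians 714 moved by less than the spread of the replicates and 14 by more. Counts of members past the threshold that moved by over 1.5 times are given below, and except where a line states otherwise the cause was not tested. Depth limits the lowest members most, Pars2 with 38 counts in 1 control.

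The first 2 characters of the library codes in batch 1, and the experiment number with the last code in batches 2 and 3, recur across groups. Some also recur within a group, as for batch 1 control replicates 6 and 7 and heme-albumin 200 μM replicates 8 and 9. Whether such libraries share a source is not given, and they were counted as separate replicates. Same-code libraries correlated with a median of 0.192 (lowest -0.657) over 169 pairs in batch 1, against -0.01 for other codes, and 0.061 (lowest -0.607) over 291 pairs in batches 2 and 3, against -0.005. Of the 60 libraries of batch 1, 21 correlated best with their own code, and 14 of the others did. The labels do not say what the codes mark and not every pair was above 0.1, so they were not taken as pairs, although the higher median in batch 1 is a hint of something shared. With the code as a replicate block, cytosolic counts became 2 with heme-albumin at 50 μM (Mars1 and Yars), 3 with hemeHpx, 7 for 400 against 200 μM heme-albumin, 1 for HbHp against Hb at 400 μM and 48 h, and 2 for the controls at 48 against 24 h. Mitochondrial counts under the block became 5 with heme-albumin at 200 μM, 2 with hemeHpx, 1 with HbHp at 200 μM and 48 h, and 1 for HbHp against Hb at 200 μM and 48 h.

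With the 3 groups at 200 μM and control alone, hemeHpx had 2 cytosolic members and heme-albumin 1 mitochondrial member. Under the filter of at least 10 counts in every library hemeHpx had 2 cytosolic and 1 mitochondrial members, and without a filter HbHp against Hb at 200 μM and 48 h had 1 cytosolic member. DESeq2 gave 2 cytosolic members with hemeHpx, and 1 mitochondrial member each with HbHp at 200 μM and with Hp at 48 h, and for HbHp against Hb at 200 μM and 48 h.

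With the correction for GC content and length, cytosolic counts became 0 with hemeHpx, 8 for 400 against 200 μM heme-albumin, 1 with HbHp at 200 μM and 48 h, 0 for HbHp against Hb at 200 μM and 48 h and 1 for HbHp against Hp at 48 h. Mitochondrial counts became 4 with heme-albumin at 400 μM and 4 for hemeHpx against heme-albumin.

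Without batch and experiment terms, cytosolic counts became 8 with HbHp at 200 μM and 6 at 400 μM at 48 h, 1 and 6 for HbHp against Hb at 200 μM at 24 and 48 h, 8 for HbHp against Hb at 400 μM and 48 h, and 4 for the controls at 48 against 24 h. Mitochondrial counts became 1 and 4 with HbHp at 200 μM at 24 and 48 h, 3 with HbHp at 400 μM and 48 h, 1 with Hp at 48 h, 1 and 2 for HbHp against Hb at 200 μM at 24 and 48 h, and 1 each at 400 μM. With the batch term only, cytosolic counts became 2 with HbHp at 400 μM and 24 h, 3 and 4 for HbHp against Hb at 200 μM at 24 and 48 h, and 2 at 400 μM and 24 h. Mitochondrial counts became 5 with HbHp at 200 μM and 48 h, 2 and 2 with HbHp at 400 μM at 24 and 48 h, 1 with Hp at 48 h, 1 and 1 for HbHp against Hb at 200 μM at 24 and 48 h, and 2 at 400 μM and 24 h. Within the second experiment alone and within batch 3 alone, which hold fewer libraries, cytosolic counts became 0 at 48 h with HbHp at 200 and 400 μM, with Hp, for HbHp against Hb at both doses and for the controls at 48 against 24 h, and within batch 3 the mitochondrial count for HbHp against Hb at 400 μM and 24 h was 1.

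Of the libraries, those of HbHp at 400 μM, the batch 3 controls (replicates 9 and 10 at 24 h, 8 and 9 at 48 h) and HbHp 200 μM 48 h replicate 1 were left out 1 at a time, each in the comparisons it enters, and the others were not. Cytosolic counts ran from 1 to 3 with HbHp at 200 μM and 48 h, were 0 for HbHp against Hb at 200 μM and 48 h in the only such fit, and ran from 0 to 1 at 400 μM and 24 h, 1 to 2 at 400 μM and 48 h, 0 to 1 for HbHp against Hp at 48 h, and 5 to 10 for the controls at 48 against 24 h. The lowest of the first 2 comparisons came without HbHp 200 μM 48 h replicate 1 and that of the last without control 48 h replicate 8. Mitochondrial counts ran from 0 to 1 with HbHp at 400 μM and 24 h and for HbHp against Hp at 24 h, 0 to 2 for HbHp against Hb at 400 μM and 24 h, each highest without HbHp 400 μM 24 h replicate 4, and 0 to 2 with Hp at 48 h, highest without control 48 h replicate 8.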

Other observations

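In the 21 libraries that entered no group, the mean log2 CPM over the cytosolic members ran from 6.47 to 6.92 with a median of 6.64, and that over the mitochondrial members from 4.13 to 4.44 with a median of 4.25. The difference between the 2 classes within these libraries ran from 2.34 to 2.54 with a median of 2.41.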
